A study of Mus musculus with 24 samples.

Results

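The constitutive proteasome subunit genes were taken as all protein-coding genes whose mouse symbol is Psma, Psmb, Psmc, Psmd, Psme or Psmg followed only by a number, without Psmb8, Psmb9 and Psmb10. This gave 44 of the 55335 genes in the files. They were followed in RNA sequencing of 24 samples of mouse tumour tissue, grown from the colon carcinoma line MC38 or the melanoma line B16. Each line was used as parental CHEK2-WT cells or as CHEK2-knock out (KO) cells, in mice that received PBS or anti-PD-1, an antibody that blocks an inhibitory receptor of T cells, and each of the 8 combinations had 3 libraries. By its title the series asks how mutations in CHEK2, a DNA damage checkpoint kinase, bear on the tumour immune microenvironment and on the response to PD-1 inhibition. Mouse strain, age, dose, time of harvest and whether a knock-out line was 1 clone are not given in the sources used here. The labels do not tie libraries to single mice, so p-values measure only the spread between these libraries. Libraries are numbered only to name them.

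The proteasome degrades proteins that carry ubiquitin. Its barrel-shaped core is built of alpha subunits (Psma genes), which form the outer rings and the gate, and beta subunits (Psmb genes), which form the inner rings. Psmb5, Psmb6 and Psmb7 carry the catalytic sites, and interferon-gamma brings in the inducible subunits Psmb8, Psmb9 and Psmb10 in their place, which changes the peptides offered to T cells. A regulatory particle caps the core: its base holds the ATPases (Psmc genes), which unfold substrates, the large scaffold subunits Psmd1 and Psmd2 and the ubiquitin receptor Psmd4, and its lid includes Psmd14, which cuts ubiquitin off. Psme genes encode other caps, the interferon-responsive PA28 alpha and beta (Psme1, Psme2), the nuclear PA28 gamma (Psme3) and PA200 (Psme4). Psmg genes and Psmd5, Psmd9 and Psmd10 encode chaperones that help to assemble the core and the base. Psma8 and Psmb11 are forms of the core restricted to testis and thymus.

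Promoters of the members were searched for short motifs, and stretches are shown for some members that the results below turn on. RefSeq promoter windows (250 bases before to 50 after the start site, build GRCm38.p6) were found for 36 members. Of 12 short motifs searched on both strands, only some are described, and they were chosen after their matches were seen. CGGAAG, the core of an ETS-type site, was in the windows of 22 of the 36 members (61.1%) and in 16.9% of all 32851 windows. TGACNNNGC, the core of an antioxidant response element, to which Nfe2l1 is known to bind, was in 6 members (16.7%), Psmb5, Psmb6, Psmc6, Psmd9, Psmd12 and Psme4, and in 12.4% of all windows. CCAAT was in 36.1% of the members and 37.4% of all windows. A motif of the kind bound by interferon regulatory factors was in 5 members (13.9%), Psmb3, Psmd4, Psmd9, Psme1 and Psmg4. It was in 3.44% of all windows, and Psme2 had no match. The gamma-activated site TTCNNNGAA was in 5.56% of the members and 8.3% of all windows. A STAT-type site, TTCCNGGAA, was in 0 members and 1.15% of all windows. TGACNNNGC can overlap a cyclic AMP response element, as it shares the letters TGAC. A match only says that the letters are there. The stretches below end at the base before the RefSeq start site and run 5′ to 3′ on the gene's strand. Capitals mark CCAAT, read on the other strand as ATTGG, in Psmd10, 3 copies of CGGAAG in Psmg1, and TGACNNNGC in Psmb5 and Psmb6. Psmd10 and Psmg1 are shown because they were lower in MC38 KO tumours. Psmb5 and Psmb6 are shown because they are catalytic, hold TGACNNNGC and were higher in B16 KO tumours under anti-PD-1. Psmb7, the other catalytic subunit, was higher there too, but no promoter window was found for it.
Psmd10, chrX:140956712-140956803, minus strand: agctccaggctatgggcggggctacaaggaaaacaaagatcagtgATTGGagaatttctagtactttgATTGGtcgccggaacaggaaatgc
Psmg1, chr16:95990961-95991108, minus strand: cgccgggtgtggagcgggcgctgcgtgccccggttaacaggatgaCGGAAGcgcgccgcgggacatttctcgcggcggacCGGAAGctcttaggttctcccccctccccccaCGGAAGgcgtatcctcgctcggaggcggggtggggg
Psmb5, chr14:54617996-54618087, minus strand: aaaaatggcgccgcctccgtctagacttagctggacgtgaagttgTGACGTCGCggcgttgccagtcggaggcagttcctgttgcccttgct
Psmb6, chr11:70525303-70525356, plus strand: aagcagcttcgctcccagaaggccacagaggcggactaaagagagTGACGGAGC

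Across the libraries, FPKM (fragments scaled to transcript length and library size) summed to 310868 to 398474, and an estimated depth was 13210000 to 23840000 reads. The 3 B16 KO anti-PD-1 libraries had the highest sums, and no other library was above 344059. Chek2 itself checks the labels. In MC38 under PBS it had 6.14, 5.15 and 4.61 FPKM in WT and 2.20, 2.40 and 1.92 in KO. In B16 under PBS it had 7.70, 7.93 and 7.17 FPKM in WT and 5.68, 5.64 and 5.67 in KO. KO libraries were thus below WT libraries in both lines, but Chek2 reads remained in all of them, and in bulk tissue reads from host cells and from an untouched part of the gene are counted too. Melanocyte markers summed to 4885 to 6285 FPKM in B16 and to 1.01 to 4.03 FPKM in MC38. No marker list for colon epithelium was used.

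Apart from Psma8 and Psmb11, the core and regulatory particle genes were expressed in every library. Of the 44 members, 42 were at or above 1 FPKM in all 24 libraries. The other two, Psma8 and Psmb11, stayed at or below 0.41 and 0.106 FPKM and were not tested. Mean levels over all libraries ran from 4.42 FPKM for Psmd9, a base chaperone, to 119 FPKM for Psma6, an alpha subunit. By class, means were 32.4 to 119 FPKM for the alpha subunits, 28.2 to 104 for the beta subunits, 25.5 to 112 for the base ATPases, 15.6 to 54.1 for the lid and 4.42 to 18.2 for the 7 assembly chaperones. The 7 chaperones thus all had means below every tested core, ATPase, scaffold and receptor gene, while the lid subunit Psmd11 (15.6 FPKM) lay among them. Neighbours in the order often did not differ beyond their spread: Psma6, Psmc5 and Psma5 had means of 119, 112 and 109 FPKM, and their libraries ranged from 98.9 to 163, from 84.0 to 170 and from 71.3 to 141 FPKM.

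**Figure D1:**
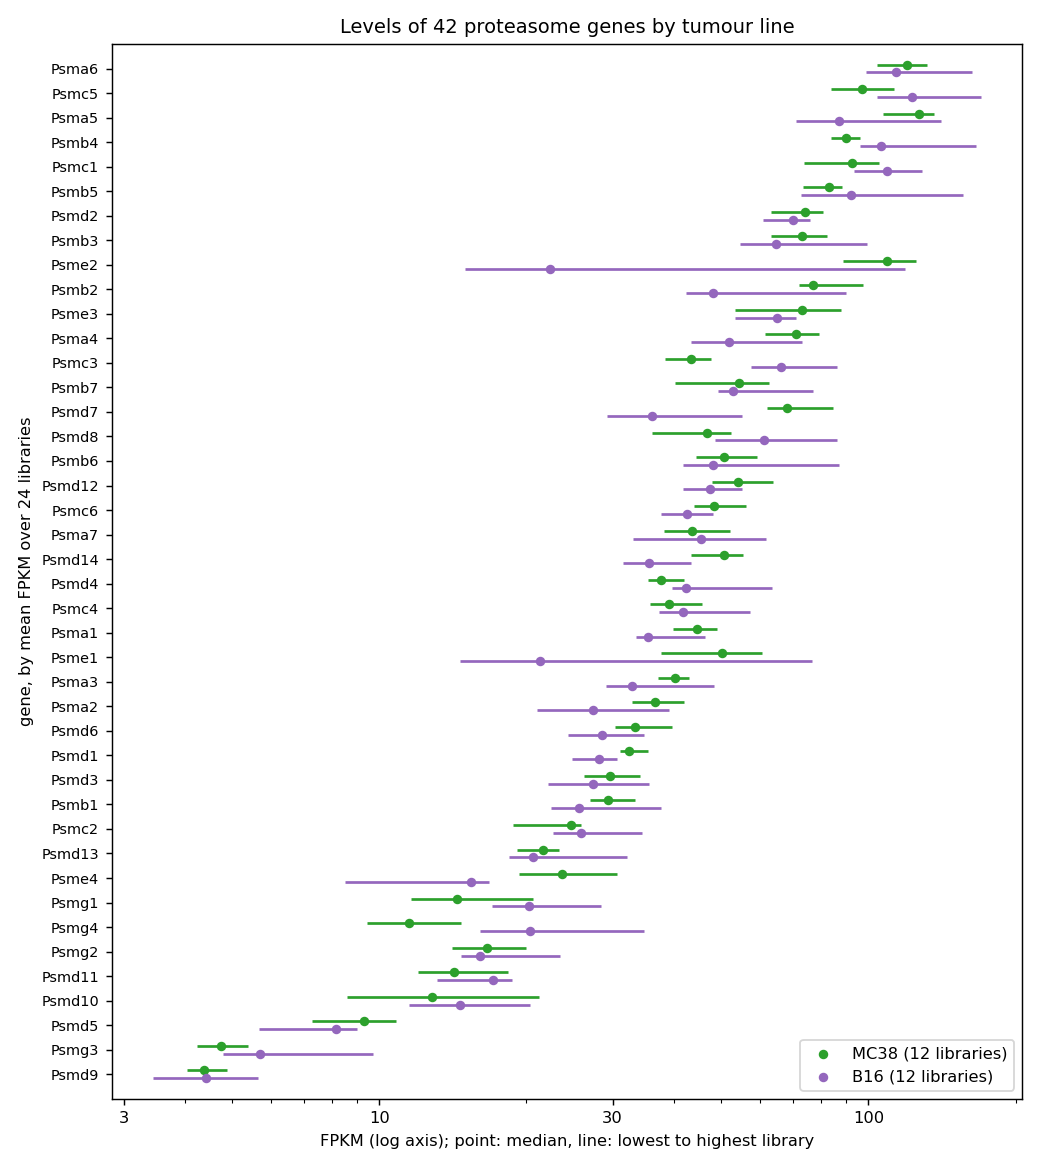
Levels of the 42 expressed proteasome genes on a log axis of FPKM, ordered by their mean over 24 libraries; points are medians and lines run from the lowest to the highest of 12 libraries per tumour line. Psme2 and Psme1 have the longest B16 lines, from 14.95 to 119 FPKM and from 14.6 to 76.7 FPKM.

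Of the catalytic trio, Psmb5 and Psmb6 passed no test within MC38, while Psmb7 was higher in KO than in WT under PBS. Psmb5, the chymotrypsin-like site, had group means of 79.0 to 85.7 FPKM in MC38, with within-group SDs of 2.58 to 4.89 (n = 3 each). Psmb6, the caspase-like site, had group means of 47.7 to 54.8 FPKM there. Psmb7, the trypsin-like site, had 50.6, 46.8 and 40.2 FPKM in WT PBS and 55.7, 57.9 and 56 in KO PBS. These groups did not overlap, as for 39.8% of all genes tested in MC38. The inducible trio differed far more between the lines. The sum of Psmb8, Psmb9 and Psmb10 came to 48.9% to 98.9% of the sum of Psmb5, Psmb6 and Psmb7 in MC38 libraries and to 2.82% to 39.9% in B16 libraries. The highest B16 values of that share, 39.9% and 22.4%, were in KO anti-PD-1 libraries 1 and 3, and the next, 20.9%, in WT anti-PD-1 library 2.

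All tests below are limma on log2(FPKM + 1) with Benjamini-Hochberg adjustment over all genes tested in the fit. Differences are on that log2 scale, which understates changes of low genes. A gene is called at an adjusted p below 0.05. Fewer cells of a type and less RNA per cell cannot be told apart in these bulk samples.

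In MC38 tumours, loss of CHEK2 went with lower levels of a few members under both treatments, while most of the complex did not pass the test. Psmd10 (gankyrin, a base chaperone), Psmg1 (a chaperone of the alpha ring) and Psma7 (an alpha subunit) were lower in KO under PBS. They were lower again under anti-PD-1, in a comparison that shares no library with the former. Both comparisons were taken from the same fit with a shared variance estimate, and both used MC38 KO cells. The comparisons are thus not independent repeats. Whether these differences stem from loss of CHEK2 or from the clonal origin of the KO cells was not tested. Under PBS, 3 members were called higher and 7 lower of 42 tested, or 23.8%, against 23.4% of all 14209 genes tested (11.9% higher and 11.6% lower). Under anti-PD-1, 0 were called higher and 4 lower, or 9.52%, against 12.1% of all genes (5.01% higher and 7.05% lower). These shares are near the background, so the set as a whole did not stand out, and its median difference was 0.00 in both comparisons, as was that of all protein-coding genes.

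Psmd10 had 17.2, 18.6 and 13.6 FPKM in MC38 WT PBS libraries and 10.8, 8.61 and 11.4 in KO PBS libraries. Under anti-PD-1 it had 18.7, 14.7 and 21.2 FPKM in WT and 10.7, 12.02 and 11.1 in KO. Every KO library lay below every WT library, and the difference was -0.63 with a standard error (SE) of 0.147 under both treatments (adjusted p = 0.0119 and 0.0197). Over all genes, the genotypes did not overlap for 39.8% under PBS and 34.1% under anti-PD-1, in either direction. Psmg1 had 19.2, 17.8 and 15.5 FPKM in WT PBS and 12.4, 11.6 and 11.9 in KO PBS. Under anti-PD-1 Psmg1 had 20.6, 17.2 and 18.1 FPKM in WT and 13.2, 12.6 and 13.4 in KO. The groups again did not overlap, with differences of -0.51 (SE 0.087, adjusted p = 0.00251) and -0.48 (SE 0.087, adjusted p = 0.00631).

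Psma7 had 50.5, 47.2 and 47.2 FPKM in MC38 WT PBS and 39.3, 38.2 and 38.4 in KO PBS. Under anti-PD-1 Psma7 had 52.2, 46.7 and 49.98 FPKM in WT and 40.6, 40.4 and 39.3 in KO. KO libraries were at about 80.1% and 80.8% of WT, below all WT libraries, and differed by -0.31 (SE 0.057, adjusted p = 0.00368) and -0.30 (SE 0.057, adjusted p = 0.0079). Psmg1 and Psma7 kept their calls in both comparisons in all 6 fits that left out a library and in all 9 other settings. Psmd10 lost its call under anti-PD-1 without WT library 1 or 3 and without KO library 1 or 3 (adjusted p of 0.0616 to 0.067) and without the filter on low values (0.0505). Under PBS it lost the call without WT library 2 (adjusted p = 0.0502).

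**Figure D2:**
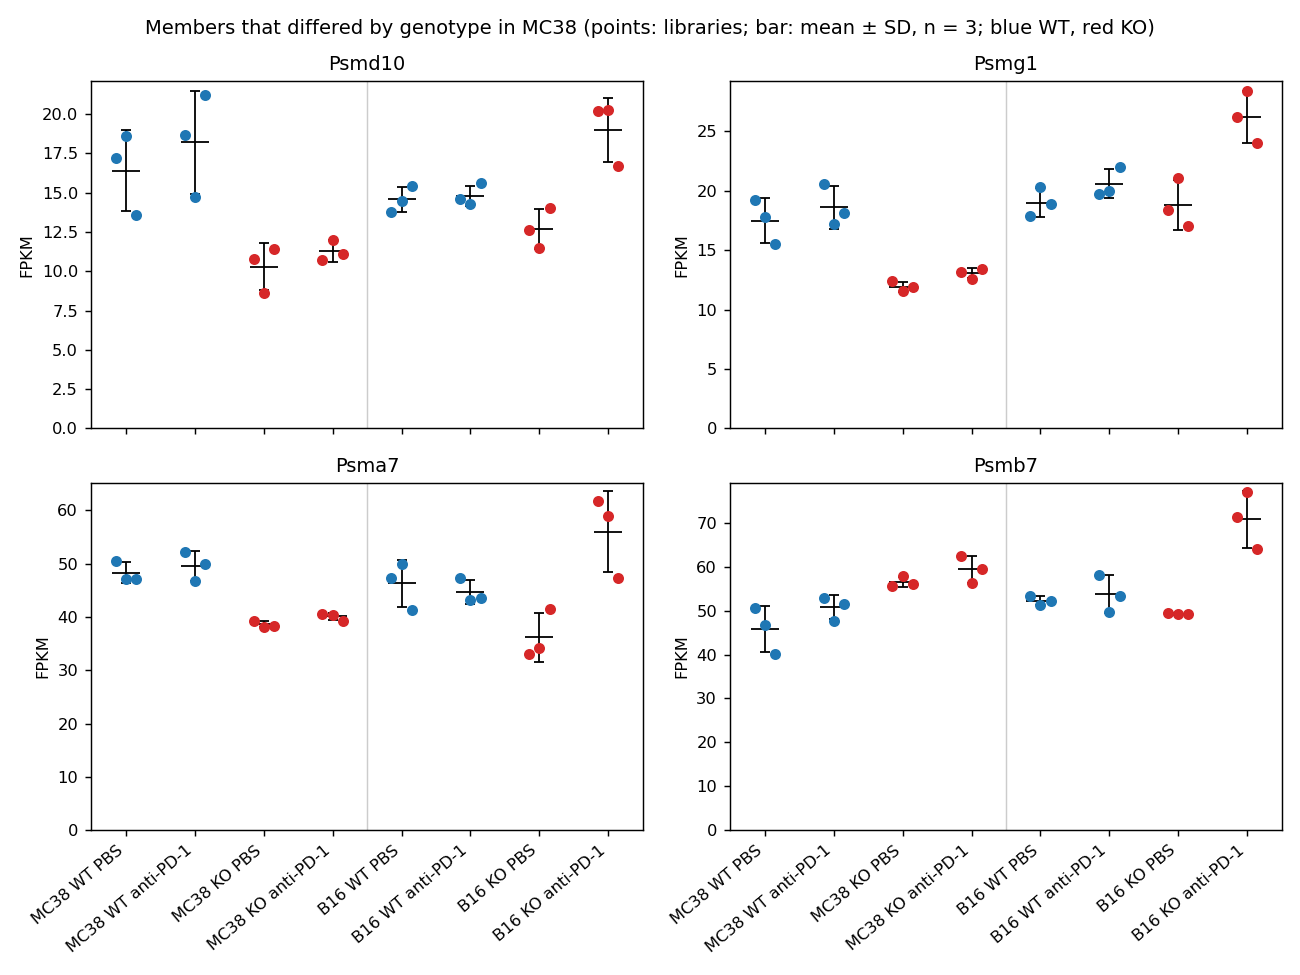
FPKM of Psmd10, Psmg1, Psma7 and Psmb7 in each library by group, with the mean and SD (n = 3). In MC38 the KO libraries of Psmd10, Psmg1 and Psma7 lie below and those of Psmb7 above all WT libraries; in B16 all 4 genes have their highest group mean in KO under anti-PD-1.

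Within the classes, the MC38 genotype difference under PBS went different ways. All 7 alpha subunits had values below 0 (median -0.14), and 3 fell: Psma7, Psma4 (-0.25) and Psma2 (-0.23). Of the 7 beta subunits 5 were above 0 and 1 rose, Psmb7, by 0.30 (SE 0.082, adjusted p = 0.0237). Of the 6 base ATPases 5 were above 0 and 1 rose, Psmc5, by 0.24 (SE 0.076, adjusted p = 0.0455). The calls of Psma2, Psma4 and Psmc5 were lost in 4, 4 and 5 of the 6 fits without 1 library (adjusted p up to 0.0932, 0.0973 and 0.148). Other settings lost them too. Psma2 was lost with protein-coding genes rescaled to equal sums (0.084) and in a fit of the 2 groups alone (0.0598). Psmc5 was lost without the filter on low values (0.083), without the variance trend (0.0618) and in the 2 groups alone (0.0875). Psma4 was lost in several settings, among them the same rescaling (0.0751) and a fit of all 24 libraries (0.102). None of the 3 scaffold and receptor genes and none of the 8 lid genes was called (smallest adjusted p 0.349 and 0.08). Under anti-PD-1 the lid gene Psmd7 fell by 0.25 (SE 0.058, adjusted p = 0.0183), with 84.5, 81.4 and 76.8 FPKM in WT and 66.9, 69.6 and 66.3 in KO. That call was lost without WT library 1 or KO library 1 or 3 (adjusted p of 0.0568 to 0.0703) and in a fit of all 24 libraries (0.0759). Under PBS the call of Psmb7 was lost without WT library 2 or 3 or KO library 2 or 3 (adjusted p of 0.0518 to 0.0718) and in a fit of the 2 groups alone (0.0662). Averaged over the treatments, 5 members were called higher and 7 lower (28.6%, against 27.4% of all genes, 13.4% higher and 14% lower), and Psma7, Psmd7, Psmd10, Psmg1 and Psmb7 kept that call in every alternative run. No member passed the interaction test in MC38 (2.44% of all genes did; 2 members had an unadjusted p under 0.05), so a difference in the genotype effect between treatments was not shown for any of them.

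The activators separated in MC38. Under PBS Psme1 fell in KO, from 53.9, 53.7 and 60.5 FPKM in WT to 40.5, 37.7 and 41.0 (-0.48, SE 0.074, adjusted p = 0.00154). Psme2 fell from 120, 111 and 125 FPKM to 88.6, 91.1 and 90.2 (-0.39, SE 0.108, adjusted p = 0.025). Psme3 went the other way, from 66.7, 53.5 and 55.5 FPKM to 74.8, 73.8 and 87.8 (0.42, SE 0.102, adjusted p = 0.0139). The genotypes did not overlap for any of these 3 called genes, nor for 39.8% of all genes tested. The call of Psme2 was lost without any of 5 of the 6 libraries (adjusted p up to 0.0753) and that of Psme3 without WT library 2 or KO library 3 (0.0574 and 0.0517). In a fit of all 24 libraries neither Psme1 nor Psme2 was called (adjusted p = 0.234 and 0.462). Under anti-PD-1 none of the activators was called, and the differences were -0.11 for Psme1, -0.06 for Psme2, 0.03 for Psme3 and -0.40 for Psme4 (adjusted p = 0.0512 for Psme4). In KO tumours anti-PD-1 against PBS called 1 member, Psme1, at 50.8, 49.2 and 47.0 FPKM against 40.5, 37.7 and 41.0 (0.30, SE 0.074, adjusted p = 0.0321), where 8.99% of all genes were called. That call was lost in every fit that left out 1 library.

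Other interferon-linked genes moved with Psme1 and Psme2 in MC38 KO under PBS. Psmb10 fell by 0.95 (SE 0.098, adjusted p = 0.000209) and Psmb9 by 0.46 (SE 0.138, adjusted p = 0.0352), while Psmb8 differed by -0.40 (adjusted p = 0.059). Of 11 interferon-gamma response genes 8 were lower, where 11.6% of all genes were called lower. Their summed level was 2808 to 3508 FPKM in KO PBS and 4466 to 4916 in WT PBS. B2m alone made up most of these sums, at 2332 to 2861 FPKM in KO PBS and 3335 to 3534 in WT PBS. Of 10 leukocyte markers tested 6 were lower, summing to 71.1 to 137 FPKM against 156 to 186, and none of the 11 was at 0 in all 3 libraries of either group. The part of these cells in the lower Psme1 and Psme2 was not tested. Psme2 has a near-identical protein-coding copy, Psme2b, which had 60.9, 50.4 and 51.8 FPKM in MC38 WT PBS, so the split of reads between them is uncertain.

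With anti-PD-1 against PBS in MC38 WT tumours, no gene at all was called (0% of 14209), and 3 members had an unadjusted p under 0.05 (smallest adjusted p 0.165). In B16 WT tumours the same comparison also called no gene (0% of 13627), with 0 members at an unadjusted p under 0.05. The median member difference was 0.06 in MC38 and -0.01 in B16.

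In B16 under PBS, KO against WT called none of the 42 members, where 0.47% of all 13627 genes were called. Of the members 38 were below 0 and 4 above, with a median of -0.11 (all genes tested, -0.05), and 8 had an unadjusted p under 0.05 (smallest adjusted p 0.131). The values of Psmd10 and Psmg1 were -0.19 and -0.02 there. The genotype difference averaged over treatments differed between the lines for 13 members (2 higher and 11 lower in MC38, where 31.3% of all genes were called, 19.7% higher and 11.6% lower), among them Psmg1 (-0.65, SE 0.09, adjusted p = 2.94e-05) and Psmd10 (-0.70, SE 0.128, adjusted p = 0.000398). Averaged over treatments, KO against WT in B16 called 6 members, where 26.5% of all genes were called (7.54% higher and 19% lower). Psma5, Psmb2, Psmb4 and Psmb6 were higher, by 0.18 to 0.36, and Psmd5 (-0.22) and Psme4 (-0.41) lower. Both averaged contrasts include the B16 KO anti-PD-1 libraries described next.

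**Figure D3:**
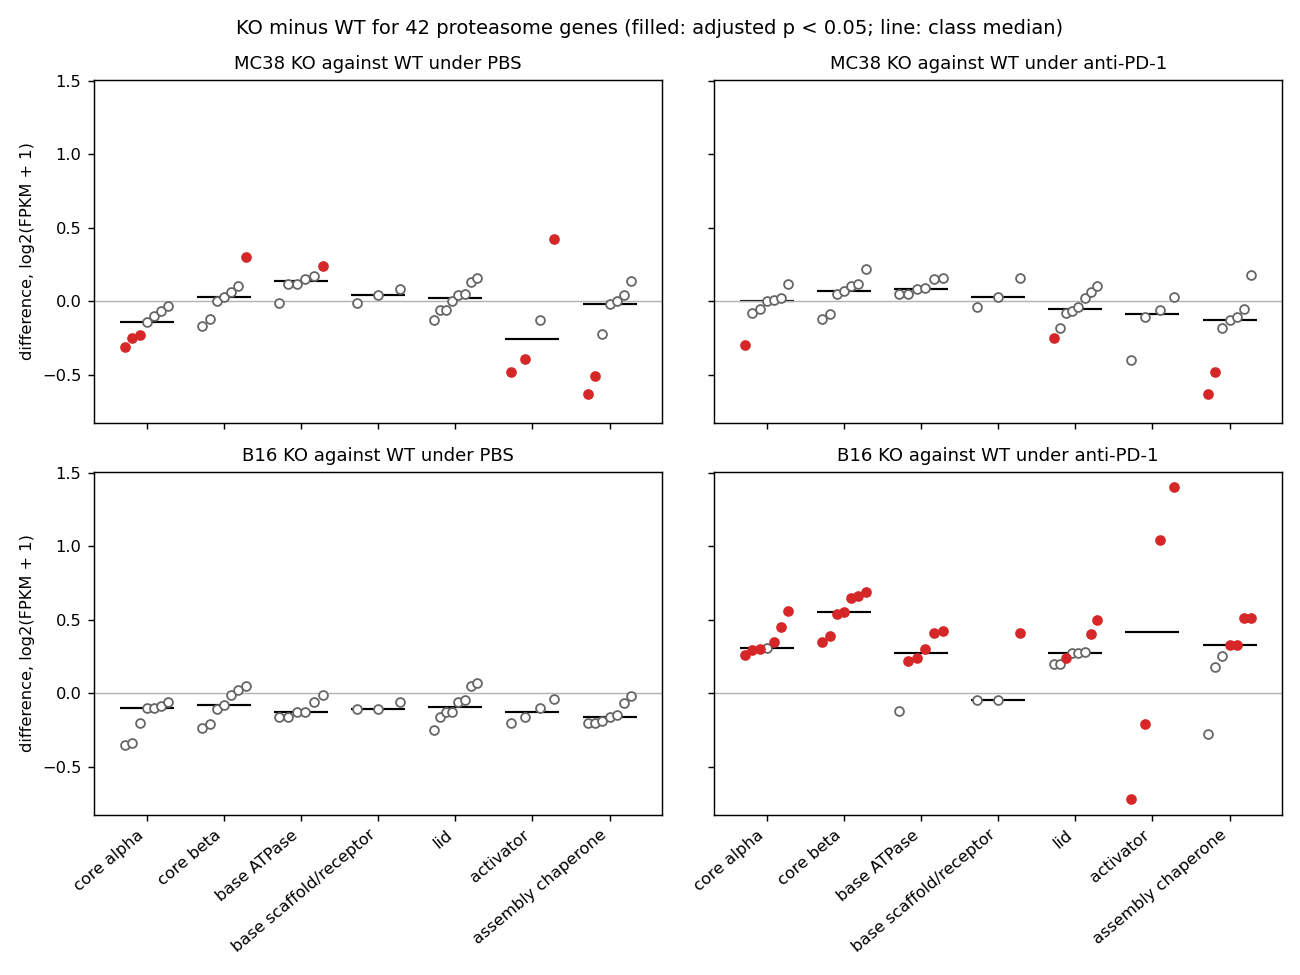
KO minus WT difference on the log2(FPKM + 1) scale for the 42 tested members by class in each line and treatment; filled points passed an adjusted p of 0.05 and lines are class medians. Panels for MC38 show single members low among the chaperones, B16 under PBS shows no call, and B16 under anti-PD-1 shows 28 members called higher and 2 lower.

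B16 KO tumours under anti-PD-1 had the highest levels of most members. Against KO tumours under PBS, all 14 tested core genes, 11 of 17 base and lid genes and 6 of 7 chaperones were higher, as were Psme1 and Psme2, while Psme3 and Psme4 were lower. In all, 33 members were called higher and 2 lower, or 83.3%, where 43.9% of all genes were called (18.9% higher and 25% lower), and the median member difference was 0.44 (all genes, -0.03). Against WT tumours under anti-PD-1, 28 were called higher and 2 lower, or 71.4%, where 40.8% of all genes were called (14.9% higher and 25.9% lower). Both comparisons use the same 3 KO anti-PD-1 libraries. With the length trend described below removed, 26.2% of members were called against KO PBS, where 31.4% of all genes were. Against WT anti-PD-1 these shares were 9.52% and 27.5%, so the excess over all genes was gone in both. The interaction of genotype and treatment was called for 25 members (24 higher, 1 lower), where 23.5% of all genes were called (8.9% higher and 14.6% lower).

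Psmb5 had the largest difference of the core. It had 156, 144 and 122 FPKM in B16 KO anti-PD-1, 88.9, 76.1 and 72.9 in KO PBS, 95.1, 85.6 and 85.3 in WT anti-PD-1 and 95.4, 93.1 and 91.2 in WT PBS. All 3 KO anti-PD-1 libraries lay above all other B16 libraries, and the difference from KO PBS was 0.82 (SE 0.102, adjusted p = 0.000192). Psma5, an alpha subunit, had 141, 126 and 118 FPKM in KO anti-PD-1 and 71.3, 76.9 and 79.0 in KO PBS (0.75, SE 0.081, adjusted p = 8.65e-05). Psmb6 had 86.9, 73.9 and 62.9 FPKM in KO anti-PD-1 and 46.4, 47.4 and 52.7 in KO PBS (0.59, SE 0.108, adjusted p = 0.00164). Psmb7 had 71.3, 77.1 and 64.1 FPKM in KO anti-PD-1 and 49.5, 49.2 and 49.3 in KO PBS (0.51, SE 0.08, adjusted p = 0.000701). In each of these the KO anti-PD-1 group lay above and apart from KO PBS, where groups did not overlap for 53.8% of all genes. With the length trend described below removed, Psmb6 and Psmb7 lost this call (both at 0.11, adjusted p = 0.445 and 0.207), and Psma5 kept it at 0.38 (adjusted p = 0.00603).

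The regulatory particle was split. Psmd13, a lid subunit, rose by 0.58 (SE 0.098, adjusted p = 0.00109), and Psmc5, an ATPase, by 0.49 (SE 0.081, adjusted p = 0.000934). The scaffolds Psmd1 and Psmd2 and the ATPase Psmc6 did not follow, at -0.01, -0.06 and -0.08 (adjusted p = 0.934, 0.621 and 0.483). Psmd14, the deubiquitinase, was at 0.15 (adjusted p = 0.261). Among the chaperones, Psmg4 rose by 0.79 (SE 0.118, adjusted p = 0.000515), and Psmd5 was at -0.08 (adjusted p = 0.578). With the length trend removed, none of the 6 ATPases and none of the 7 chaperones was called: Psmc5 was at 0.13 (adjusted p = 0.227) and Psmg4 at 0.27 (adjusted p = 0.0666), while Psmd13 kept its call at 0.39 (adjusted p = 0.0119). Psmc5 also lost its call with quantile normalization (0.10, adjusted p = 0.34).

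These differences moved with transcript length, over all genes as well as over the members. In B16 KO, anti-PD-1 against PBS, protein-coding genes whose longest annotated transcript was up to 1000 bp had a median difference of 0.50 (640 genes), those over 2000 and up to 3000 bp 0.09 (2433 genes) and those over 7000 bp -0.58 (934 genes). Against WT anti-PD-1 the same bins gave 0.50, 0.07 and -0.65. Across genes, Spearman's rho of length and difference against KO PBS was -0.64 over 11149 protein-coding genes and -0.74 over the 42 members, which share the same libraries. Members are short: their median longest transcript was 1490.5 bp, against 3081 bp over the protein-coding genes tested in B16. Psmd1, Psmd5 and Psme4 are the only ones of the 42 tested members over 3000 bp, with longest transcripts of 3112, 4397 and 6491 bp. All 7 members up to 1000 bp and 11 of 14 over 1000 and up to 1500 bp lay above the median of their length bin against KO PBS, but only 7 of 14 in the latter bin did so against WT anti-PD-1. In the other 6 comparisons within a line, rho over protein-coding genes was between -0.18 and 0.17. The transcript actually used by each gene was not measured, and the part of RNA quality or library preparation in this trend was not tested.

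**Figure D4:**
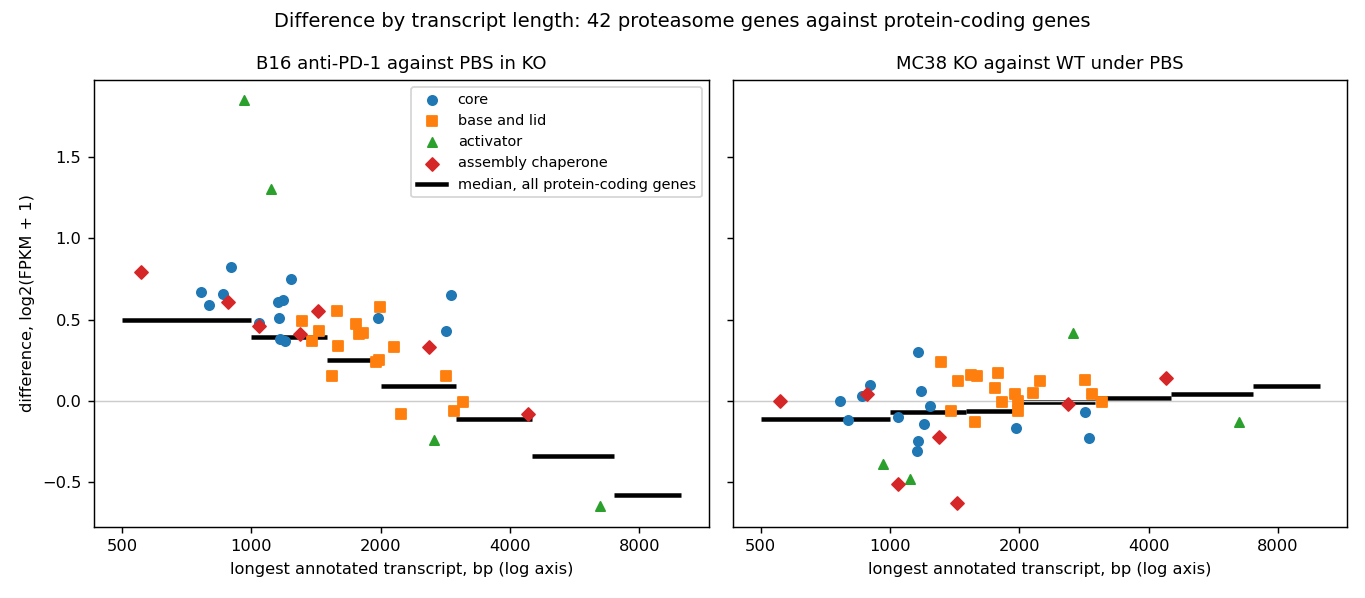
Difference on the log2(FPKM + 1) scale against the longest annotated transcript (log axis) for the 42 members by role, with black bars for the median of all protein-coding genes in each length bin (the last bar holds all genes over 7000 bp). In B16 KO, anti-PD-1 against PBS, the bars fall from 0.50 to -0.58 and most members follow them; in MC38 KO against WT under PBS the bars run from -0.11 to 0.09.

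When a smooth trend on transcript length was removed from each library, an alternative chosen after seeing the data, the calls against KO PBS went from 35 to 11 (9 higher and 2 lower, 26.2%), where 31.4% of all genes were called. Against WT anti-PD-1 they went from 30 to 4 (2 higher and 2 lower), where 27.5% of all genes were called, and for the interaction from 25 to 2, where 13.3% were called. Rescaling protein-coding genes to equal sums left 9 higher and 6 lower against WT anti-PD-1, and quantile normalization 15 and 4. Against KO PBS the same rescaling left 23 higher and 4 lower and quantile normalization 27 and 2. Single members held: against KO PBS, Psma2, Psma5, Psmb1, Psmb4, Psmb5, Psmd4, Psmd13 and Psme2 were called higher and Psme4 lower in every alternative run. With the length trend removed, Psmb5 was still higher by 0.36 (SE 0.083, adjusted p = 0.00923) and Psma2 by 0.65 (SE 0.095, adjusted p = 0.000787). The removal hardly changed Psma2, because its longest annotated transcript has 2911 bp, a length at which the median difference was 0.09. Psma1 and Psma4 to Psma7 have 1042 to 1239 bp, where that median was 0.39. Whether Psma2 used so long a transcript was not measured. The same limit holds for Psmb1, Psmd4 and Psmd13, with longest annotated transcripts of 1970, 1756 and 1989 bp, where the median difference was 0.25. The other tested beta genes have 766 to 1183 bp. Psma2 and Psmb5 were also the members whose interaction was called in every alternative.

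Psme1 and Psme2 varied by library within B16. Psme2 had 119, 38.1 and 72.0 FPKM in KO anti-PD-1, 15.2, 21.4 and 19.1 in KO PBS, 14.95, 46.9 and 23.1 in WT anti-PD-1 and 19.5, 26.8 and 18.4 in WT PBS. KO anti-PD-1 lay above KO PBS without overlap (1.85, SE 0.42, adjusted p = 0.00525), but its lowest library lay below the highest WT anti-PD-1 library (1.40, SE 0.42, adjusted p = 0.0212). Psme1 had 76.7, 28.2 and 50.6 FPKM in KO anti-PD-1 and 14.6, 38.2 and 21.02 in WT anti-PD-1, again with overlap (1.04, SE 0.351, adjusted p = 0.0355). Over the 12 B16 libraries Pearson's r of Psme1 and Psme2 was 0.98 on the log2 scale, and 0.96 for the deviations from their group means, as a description of libraries that share groups. The call of Psme1 against WT anti-PD-1 was lost in 4 of 6 fits without 1 library (adjusted p up to 0.138) and that of Psme2 in 3 of 6 (adjusted p up to 0.0846), and both were lost with the length trend removed (adjusted p = 0.201 and 0.118).

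The same libraries were high for the inducible subunits and for immune genes. Psmb8 had 35.2, 4.27 and 12.8 FPKM in B16 KO anti-PD-1 and 0.959, 9.01 and 3.42 in WT anti-PD-1. Interferon-gamma response genes summed to 1506 to 4591 FPKM in B16 KO anti-PD-1 and to 741 to 1109 in KO PBS, with 4 of 11 called higher. B2m alone made up most of these sums, at 3958, 1376 and 2682 FPKM against 663, 966 and 886. Leukocyte markers summed to 71.5 to 169 FPKM against 20.5 to 39.3, with 5 of 6 tested called higher. Nkg7, 1 of these 6, needed the KO anti-PD-1 libraries to pass the filter on low values. Skeletal muscle markers summed to 2084, 184 and 10.3 FPKM in the KO anti-PD-1 libraries against at most 2.04 in KO PBS. Of these 8 markers, 2 were at 0 in all KO PBS libraries. Only 3 passed the filter on low values, and all 3 were called higher. Acta1 and Tnnt3 passed it only through the KO anti-PD-1 libraries, so this count is no separate support. Fibroblast and endothelial markers (4 of 7 called higher, 61.2 to 322 FPKM against 15.6 to 27.6) and cytosolic ribosome genes (7 of 8 called higher) were also high. Erythroid markers (0 of 5 called) overlapped, at 15559, 2036 and 1015 FPKM against 3457, 3648 and 199. Melanocyte markers had 1 called higher and 3 lower of 7. Over all genes, 18.9% were called higher and 25% lower in this comparison. The part of these cell types in the member values was not tested.

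Psme3 and Psme4 went down in B16 KO under anti-PD-1. Psme4 had 8.49, 9.88 and 9.22 FPKM there, 14.2, 15.1 and 15.8 in KO PBS, 14.9, 15.7 and 16.8 in WT anti-PD-1 and 16.1, 16.6 and 15.9 in WT PBS. These are the 3 lowest of all 24 libraries for Psme4 (-0.65, SE 0.077, adjusted p = 0.00014 against KO PBS). With the length trend removed the difference was -0.20 (SE 0.066, adjusted p = 0.0385). Psme3 had 55.98, 53.3 and 58.5 FPKM in KO anti-PD-1 and 63.1, 66.4 and 68.4 in KO PBS (-0.24, SE 0.069, adjusted p = 0.0186), a call lost in 3 of 6 fits without 1 library (adjusted p up to 0.061).

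**Figure D5:**
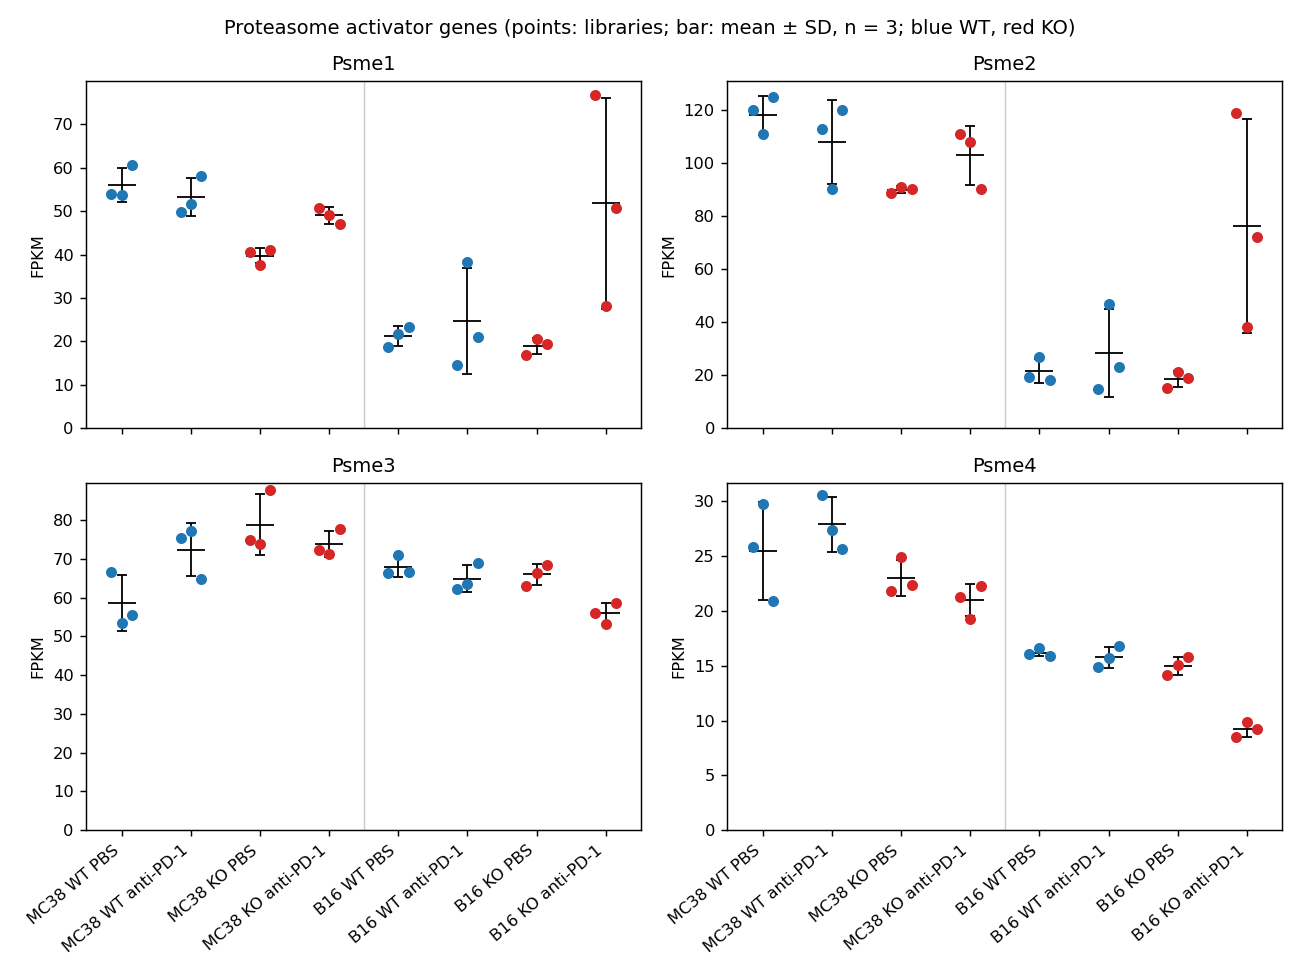
FPKM of Psme1 to Psme4 in each library by group, with the mean and SD (n = 3). Psme2 lies at or above 88.6 FPKM in every MC38 library and spreads from 38.1 to 119 FPKM in B16 KO under anti-PD-1, and Psme4 has its 3 lowest values, 8.49 to 9.88 FPKM, in B16 KO under anti-PD-1.

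Levels of single members differed between the lines, which cannot be told apart from batch. Averaged over the groups, 20 members were higher and 14 lower in MC38 than in B16 (81%), where 79.6% of all genes were called (43.5% higher and 36.2% lower), so the share of members was at the background. All 4 activators were higher in MC38 on this average, Psme2 most, by 1.81 (SE 0.164, adjusted p = 3.58e-09). Psme3 was not higher in every group. In WT PBS its mean was 58.6 FPKM (SD 7.12) in MC38 and 68.0 (SD 2.66) in B16, while the other groups had higher means in MC38. With the length trend removed, 3 of the 4 activators were called higher. Psmd7, a lid subunit, had medians of 68.3 FPKM in MC38 and 36.1 in B16 and no overlap of the 12 libraries of each line, as for 31.3% of all genes (0.89, SE 0.044, adjusted p = 2.41e-13). The base ATPases went the other way, with 5 of 6 lower in MC38, led by Psmc3 (-0.62, SE 0.033, adjusted p = 1.01e-12). Psmg4, a core chaperone, was lower in MC38 by 0.83 (SE 0.07, adjusted p = 1.13e-09), with no overlap, and 3 of the 4 Psmg genes were lower. Of the 34 calls, 24 held in every alternative, including Psmd7, Psmc3, Psme2 and Psmg4.

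Members also varied together from library to library. In B16 the median Pearson's r between 2 of the 14 core genes was 0.89 over 12 libraries, and 0.60 for deviations from the group mean. In MC38 these were 0.42 and 0.60. For the deviations, medians within classes in MC38 and B16 were 0.77 and 0.61 for alpha subunits, 0.43 and 0.53 for beta subunits, 0.35 and 0.61 for base ATPases and 0.40 and 0.36 for lid genes. These values describe libraries that share scaling and tissue make-up.

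Genes that work with the proteasome did not move as 1 block. Nfe2l1, the factor that drives proteasome genes when the proteasome is impaired, had 15.1, 12.7 and 15.1 FPKM in MC38 WT PBS and 27.5, 21.03 and 29.3 in KO PBS (0.81, SE 0.224, adjusted p = 0.0253). Under anti-PD-1 its values overlapped (0.06, adjusted p = 0.884). In B16 KO anti-PD-1 it had 8.29, 6.54 and 40.6 FPKM, so that library 3 set the group mean, and without that library Nfe2l1 was lower than in KO PBS by 0.66 (adjusted p = 0.00374). Pomp, the maturation factor of the core, rose by 0.69 (SE 0.098, adjusted p = 0.000399) in B16 KO anti-PD-1 against KO PBS and by 0.83 with the length trend removed. Adrm1, a ubiquitin receptor, rose by 0.49 (SE 0.084, adjusted p = 0.00108), a call lost with the length trend removed (0.20, adjusted p = 0.0819). Of 12 other proteasome-bound proteins, the list that holds these 2, 3 were higher and 3 lower there, and in MC38 KO against WT under PBS 2 were higher and 0 lower. Of 5 genes of the Nfe2l1 route, 0 were higher and 1 lower in the former and 1 and 0 in the latter. Of 11 ubiquitin and shuttle genes, 5 were higher and 1 lower in the former, and 2 and 1 in the latter. Over all genes, 18.9% were called higher and 25% lower in the former, and 11.9% and 11.6% in the latter. The lists are short and were not tested against these shares, and the counts are without removal of the length trend.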

How the data were processed

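RNA of MC38 and B16 tumours was extracted with Trizol and sequenced from standard Illumina libraries, per the labels' protocols. The authors deposited FPKM for 55335 genes in each of 24 libraries. FastQC, STAR 2.5, Cuffnorm and DESeq and the build mm10 are named in the submitters' processing notes, without role or order, and how FPKM were scaled and whether strand was used are not given in the sources used here. Of the low FPKM only 19.9% to 27.4% were whole multiples of 1 read (within 0.02), so reads were not recovered and the depth in the report is an estimate.

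Values were tested as log2(FPKM + 1) with limma 3.58.1 in R 4.3.3, 1 mean per group, with a variance trend. A gene entered a fit when 3 or more of its libraries reached 1 FPKM: 14209 in MC38 (12 libraries), 13627 in B16 (12) and 15655 in the comparisons of lines (24). P-values were adjusted by Benjamini-Hochberg over these genes, with 0.05 as the threshold, in 14 comparisons. Gene IDs were matched to the annotation for 55154 genes and not for 181. Psmb8, Psmb9 and Psmb10 are left out as inducible, and Psme2b, Psmc3ip and pseudogenes because their symbols do not end in the number. Exons of 11 members overlap those of another gene, 9 of them on the other strand, so their reads may be shared.

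Named were the catalytic subunits and their inducible counterparts, Psme1 to Psme4, Psma8 and Psmb11, Nfe2l1, Pomp, Adrm1 and Chek2, up to 6 called members in each direction with the largest difference per comparison, and members that go against their class. The members, lists and rules were chosen with earlier results of these data known. Alternatives were a pseudocount of 0.1, no filter, other scalings, no variance trend, other sets of libraries and each library left out. Further alternatives were added after seeing the data: removal of a length trend (lowess, span 0.3) and, for the lines, leaving out the KO anti-PD-1 groups. The test was tested on simulated data: for MC38 KO against WT under PBS (14030 genes) it recovered 65.7% of 1.5-fold and 82.1% of 2-fold changes, and for B16 (13495 genes) 49.3% and 88.1%. False calls were 12 of 173 in MC38 and 6 of 160 in B16. Only 200 genes per line were changed, none of them of low mean FPKM, and noise was independent between genes. These rates thus need not hold for low genes or for the real comparisons.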

Additional observations from a re-analysis of the deposited data

Results flagged for a closer look

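The response to anti-PD-1 differed between the genotypes in B16, by the interaction term in limma, for 25 of 42 members (59.5%, where 23.5% of all genes were called). With the length trend removed, 2 members were left (4.76%, where 13.3% of all genes were called). The largest values on the log2 scale were 0.89 for Psmb5, 0.76 for Psma5, 0.76 for Psmb3, 0.71 for Psmg3, 0.67 for Psmb6 and 0.66 for Psma7. Psme4 went the other way, at -0.62. These values rest on the 3 KO anti-PD-1 libraries, whose differences moved with transcript length and whose muscle, leukocyte and ribosome genes were high.

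The difference between KO and WT, averaged over treatments, differed between MC38 and B16 for 13 of 42 members in a fit of all 24 libraries. This share, 31%, was at the background of 31.3% of all genes. It was higher in MC38 for Psmd5 (0.38) and Psme3 (0.35). It was lower in MC38 for Psme1 (-0.74), Psmd10 (-0.70), Psmg1 (-0.65), Psmb6 (-0.48), Psma7 (-0.29) and Psmg2 (-0.29), and for Psma1, Psma6, Psmb1, Psmb4 and Psmd7. The calls of Psme3, Psmb6, Psmd10 and Psmg1 held in every alternative run.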

How the results depend on the processing

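Counts of called members stayed within 1.5 times in 229 of 263 recomputed counts over the 14 comparisons. Removing the length trend gave 11 members for B16 anti-PD-1 against PBS in KO, 4 for B16 KO against WT under anti-PD-1, 2 for the B16 interaction, 1 for B16 KO against WT averaged over treatments, 7 for the KO difference between lines and 0 for MC38 anti-PD-1 against PBS in KO. It turned Psma1 (-0.05), Psma4 (-0.01), Psmc1 (-0.02) and Psmg1 (-0.06) in B16 KO against WT under anti-PD-1, Psma1 (-0.01) and Psma4 (-0.02) in B16 anti-PD-1 against PBS in KO, Psma1 in the interaction (-0.03), Psmb6 between the lines (0.16), and Psma1 (0.02) and Psmb4 (0.00) in the KO difference between lines. With protein-coding genes rescaled to equal sums, B16 KO against WT under anti-PD-1 had 15 members and the interaction 12, and Psmc1 (-0.03), Psmc3 (0.00) and Psmd12 (0.00) lost their direction in the former. This rescaling moved the median of all protein-coding genes there from -0.02 to -0.23. Quantile normalization gave 19 and 15, with Psmc1 at -0.13 and Psmc5 at -0.02, and in the KO difference between lines Psma6 at 0.01 and Psmb4 at 0.05. Median-of-ratios scaling gave 0 for MC38 anti-PD-1 against PBS in KO and 13 for B16 KO against WT averaged over treatments. A fit of all 24 libraries gave 0 and 11 for these and 1 for B16 KO against WT under PBS. Without the filter the KO difference between lines had 8 members. Without the KO anti-PD-1 groups, Psmd10 was at 0.04 and Psmb6 at 0.11 between the lines. The cause of these changes was not tested.

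Leaving out 1 library gave 4 to 9 members for MC38 KO against WT under PBS (4 without WT library 2 or KO library 3, 5 without KO library 2), 2 to 4 under anti-PD-1 (2 without WT library 1 or KO library 1 or 3) and 6 to 12 averaged (6 without WT PBS library 2 or WT anti-PD-1 library 1, 7 without WT anti-PD-1 library 3 or KO PBS library 3). For MC38 anti-PD-1 against PBS it gave 0 to 0 in KO and 0 to 0 in WT, and 0 to 0 for the MC38 interaction. In B16 it gave 21 to 32 for KO against WT under anti-PD-1, 30 to 35 for anti-PD-1 against PBS in KO, 4 to 13 averaged (13 without KO anti-PD-1 library 3), 22 to 27 for the interaction, and 0 to 0 for KO against WT under PBS and anti-PD-1 against PBS in WT. Between the lines it gave 31 to 34, and 8 to 15 for the KO difference (8 without MC38 WT anti-PD-1 library 1). Nfe2l1 ranged from -0.58 to 0.65 in B16 KO against WT under anti-PD-1, from -0.66 to 0.58 in anti-PD-1 against PBS in KO, from -0.29 to 0.33 averaged and from -0.58 to 0.65 for the interaction, lowest without KO anti-PD-1 library 3 and highest without library 2. No paired analysis was possible because the labels give no replicate numbers and no pairing. Depth is only estimated, so no counting error is attached to single FPKM values.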
